A study of Mus musculus with 6 samples.

Results

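MHC class II genes encode the chains that display peptides to CD4 T cells, together with the proteins that assemble, load and switch on those chains. The set examined here comprised 8 mouse genes, H2-Aa, H2-Ab1, H2-Eb1, Cd74, H2-DMa, H2-DMb1, Ctss and Ciita, out of 56884 mouse genes in the count table. They were chosen by pathway membership, with earlier results of these data known, and each identifier was named from a GENCODE mouse annotation. All 8 were present and all 8 passed the filter of at least 10 counts over the 6 libraries.

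The mice were male athymic BALB/c (nu/nu) animals, 6 weeks old by the labels, with human HCC cells growing in the liver. AAV8 carrying siControl or siAATF, the latter directed against mouse Aatf (apoptosis antagonizing transcription factor), was given through the tail vein 1 week after the tumor cells, and the animals were followed for 3 more weeks. The labels give the genotype as WT with control AAV for 3 libraries and as KD with siAATF AAV for 3 libraries, and the tissue as liver for all 6. The siRNA was driven by the TBG promoter, which is active in hepatocytes, whereas class II molecules are displayed chiefly by dendritic cells, B cells and macrophages. Athymic mice lack a thymus and so have few mature T cells, the cells that read class II molecules.

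The libraries labelled siControl held 213022 to 913584 mouse gene counts, and those labelled siAATF held 11835898 to 42563694. Mouse genes took 0.778% to 1.93% of all gene counts in siControl, where the human tumor cells gave the rest, and 97.9% to 99.0% in siAATF. One group was thus nearly all human RNA and the other nearly all mouse RNA, and this difference cannot be told apart from the labels. A gene with 0 counts could still have reached 3 counts per library, equal to between 1.67 and 7.24 CPM (counts scaled to a common mouse total, after TMM normalization as for all levels given as CPM here) in siControl, while the same limit was between 0.103 and 0.604 CPM in siAATF. These limits cover counting error alone, since PCR copies of 1 molecule are counted as separate reads. Aatf itself was not lower after TMM normalization in the libraries labelled siAATF, where its normalized CPM was 13.2, 22.0 and 18.8, beside 9.62, 2.41 and 12.8 with the siControl label. Its log2 fold change was 0.93 (SE 0.47, adjusted p = 0.152, edgeR with Benjamini-Hochberg adjustment) after TMM normalization, and it reversed to -0.91 by mouse library size alone, neither of which passed the test. Per human and mouse gene count it was 5.04 higher on the log2 scale (adjusted p = 3.77e-10, edgeR), so that its direction depended on the scaling. Group names therefore refer to the labels of the libraries throughout.

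Class II molecules are pairs of an alpha and a beta chain. In the endoplasmic reticulum each pair is capped by the invariant chain, CD74, which is then cut away by proteases such as cathepsin S, leaving a fragment that the editor H2-DM exchanges for peptide. Transcription of these genes depends on CIITA, a coactivator without DNA binding of its own, which docks on factors bound to the X and Y boxes of class II promoters. In the liver, Kupffer cells, dendritic cells, B cells and sinusoidal endothelium are the usual carriers of class II.

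To show the elements on which the pathway turns, the 80 bases just before the annotated start of transcription are printed for the 3 antigen-presenting chains and for H2-DMa. They were read from GRCm39 at the start of the principal transcript, 5′ to 3′ on the strand of the gene, and capitals mark each match, on either strand, to the Y-box core ATTGG or to the X1-box core GNNACNGAT. The H2-DMa stretch lies inside the interval of that gene, since a longer transcript begins upstream of it. The H2-Eb1 stretch ends at the start given by GENCODE release 39, which lies before the start of that gene in the deposited table, made on release 33.
H2-Aa (chr17:34506798-34506877, minus strand): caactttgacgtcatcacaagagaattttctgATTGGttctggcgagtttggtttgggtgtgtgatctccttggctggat
H2-Ab1 (chr17:34482103-34482182, plus strand): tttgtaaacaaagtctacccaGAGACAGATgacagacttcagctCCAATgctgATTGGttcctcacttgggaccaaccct
H2-Eb1 (chr17:34524733-34524812, plus strand): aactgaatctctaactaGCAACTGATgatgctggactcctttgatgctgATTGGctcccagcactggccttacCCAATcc
H2-DMa (chr17:34354480-34354559, plus strand): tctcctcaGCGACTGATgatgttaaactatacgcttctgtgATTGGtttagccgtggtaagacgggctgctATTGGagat

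In H2-Ab1, H2-Eb1 and H2-DMa the X1 core was followed by a Y core on the same strand. Their first bases lay 32 bases apart in H2-Ab1, 32 bases apart in H2-Eb1 and 33 bases apart in H2-DMa. H2-Ab1 also held a Y core on the other strand, 23 bases from the X1 core. The X1 core began 59, 63 and 72 bases before the start of H2-Ab1, H2-Eb1 and H2-DMa, respectively. H2-Aa matched the Y core alone, 48 bases before its start. Over the window from 250 bases before to 50 bases after the start, the Y core occurred in 39.5% of 13851 protein-coding promoters and the X1 core in 6.71%, each searched on both strands. An X1 core with a Y core 15 to 40 bases on occurred in 0.462% of them. The Y core was therefore common, the X1 core less so and the spaced pair least. The last 2 letters of the X1 core can be the first letters of a Y core, which the minimum distance keeps out of the pair.

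The remaining members matched less of this arrangement. Cd74 held a Y core on the other strand, 183 bases before its start, H2-DMb1 an X1 core within its first transcribed bases, and Ctss none of the 3 motifs searched. The promoter of Ciita held the gamma-activated site TTCNNNGAA, an element of genes that respond to interferon-gamma, 33 bases before the start, and 7.63% of all promoters held it. The start used for Ciita lies 9593 bases inside the interval of the gene, which has several promoters, and the others were not searched. H2-DMb2, a close copy of H2-DMb1 and not a member, held a Y core 41 bases and a gamma-activated site 169 bases before its start. A match is a description of letters, and a missing match says only that these letters are not in the window.

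**Figure D1:**
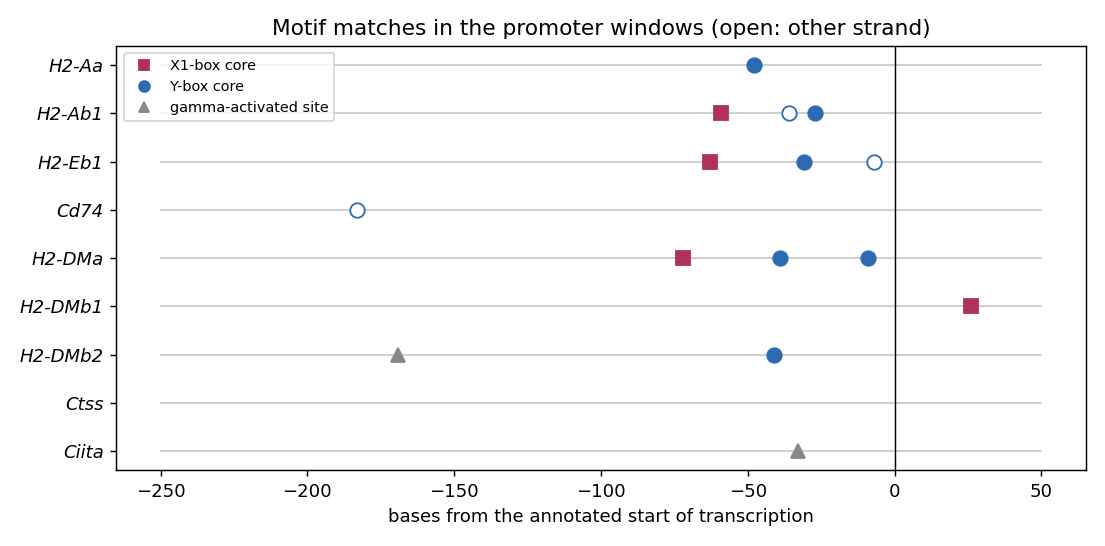
Positions of matches to the X1-box core (squares), the Y-box core (circles) and the gamma-activated site (triangles) in the windows of the 8 members and H2-DMb2, in bases from the annotated start, with open symbols for the other strand. H2-Ab1, H2-Eb1 and H2-DMa show an X1 core followed by a Y core 32 to 33 bases on, and Ctss shows no match.

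Next, the level of each member was compared between the groups. All 8 class II genes were lower per mouse count in the libraries labelled siAATF, at an adjusted p under 0.05, where 14.4% of the 18018 tested mouse genes were called lower. None was called higher, where 17.6% of tested genes were, and none was higher at an unadjusted p under 0.05 or by DESeq2. In all 8 the groups did not overlap, which held in the lower direction for 18.1% of tested genes. All 8 also met the rule of the study's methods, an unadjusted p under 0.05 and a log2 difference whose size was 2 or more, which 13.1% of tested genes met in the lower direction. The median log2 fold change of the members was -3.46, beside 0.50 for all tested genes. Levels are CPM after TMM normalization, which scales each library so that most genes do not change. In bulk liver RNA, fewer cells of a type and less RNA per cell cannot be told apart. Per human and mouse gene count together, 0 members were called lower, where 0.66% of tested genes were, as described after the single genes.

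H2-Aa (ENSMUSG00000036594, chromosome 17, 34501718 to 34506797, GRCm39) encodes the alpha chain of I-A, the main class II molecule of the mouse. It had 100, 38 and 164 counts in siControl replicates 1 to 3, or 80.2, 91.7 and 91.4 CPM, and 323, 15 and 225 counts in siAATF replicates 1 to 3, or 11.1, 3.02 and 12.5 CPM. The siControl libraries lay close together and the siAATF libraries spread more widely below them. The log2 fold change was -3.27 (SE 0.49, adjusted p = 0.000368, edgeR with Benjamini-Hochberg adjustment, as for the other members). H2-Ab1 (ENSMUSG00000073421, chromosome 17, 34482183 to 34488393), the beta chain that pairs with it, measured 97.8, 62.7 and 81.9 CPM in siControl and 9.44, 1.61 and 7.76 CPM in siAATF. Its log2 fold change was -3.64 (SE 0.55, adjusted p = 0.00035). The lowest siAATF value, in replicate 2, rested on 8 counts.

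H2-Eb1 (ENSMUSG00000060586, chromosome 17, 34524841 to 34535648), the beta chain of the second class II molecule I-E, was the most abundant of the 3 chains. It measured 233, 191 and 203 CPM in siControl and 19.0, 3.83 and 25.8 CPM in siAATF. Its log2 fold change was -3.67 (SE 0.60, adjusted p = 0.000655). Its partner H2-Ea, the alpha chain of I-E, had 0 counts in all 6 libraries, including 42563694 mouse counts in the deepest. H2-Eb1 was therefore counted without reads of its partner chain, and the reason was not tested. The reads came from BALB/c mice and were counted on a C57BL/6 reference, and the part of that difference in the counts of these polymorphic genes was not tested.

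Cd74 (ENSMUSG00000024610, chromosome 18, 60936920 to 60945724), the invariant chain, measured 545, 398 and 382 CPM in siControl and 46.6, 24.4 and 67.4 CPM in siAATF. Its highest siAATF library was therefore well below its lowest siControl library. The log2 fold change was -3.26 (SE 0.51, adjusted p = 0.000467). H2-DMa (ENSMUSG00000037649, chromosome 17, 34341806 to 34358075) and H2-DMb1 (ENSMUSG00000079547, chromosome 17, 34372046 to 34379204) form the editor that loads peptide. H2-DMa measured 32.1, 19.3 and 22.3 CPM against 2.86, 1.41 and 4.04 CPM, a log2 fold change of -3.11 (SE 0.47, adjusted p = 0.000351). H2-DMb1 measured 12.03, 21.7 and 11.1 CPM against 0.965, 0.403 and 1.22 CPM, a log2 fold change of -3.92 (SE 0.60, adjusted p = 0.00038). H2-DMb1 rested on only 2 to 28 counts a library, and shares near-identical sequence with H2-DMb2, so that the authors' removal of reads mapped to several places could have split or reduced its counts.

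Ctss (ENSMUSG00000038642, chromosome 3, 95434097 to 95463714), the cathepsin that trims the invariant chain in antigen-presenting cells, showed the largest change of the 8. It measured 885, 398 and 633 CPM in siControl and 12.96, 8.06 and 23.1 CPM in siAATF, so that the lowest siControl library was far above the highest siAATF library. The log2 fold change was -5.43 (SE 0.62, adjusted p = 7.31e-05). Ciita (ENSMUSG00000022504, chromosome 16, 10297923 to 10346282), the transactivator, showed the smallest change. It measured 13.6, 14.5 and 9.47 CPM in siControl and 1.10, 2.42 and 3.10 CPM in siAATF, from 6 to 56 counts a library. The log2 fold change was -2.48 (SE 0.57, adjusted p = 0.00516).

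**Figure D2:**
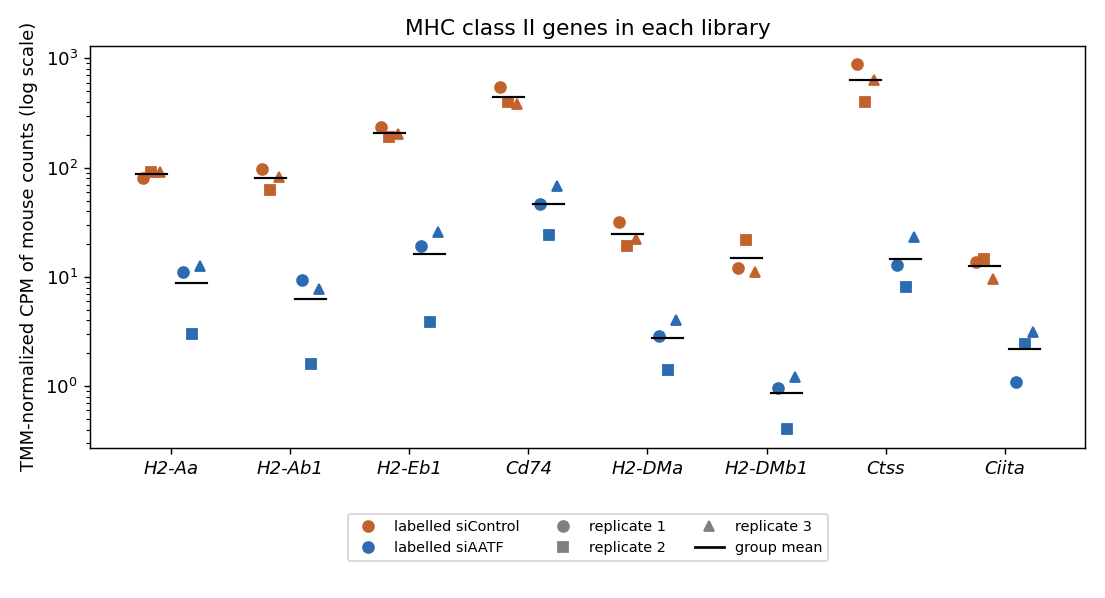
TMM-normalized CPM of mouse counts (log scale) of the 8 class II genes in each library, with color for the label, symbol for the replicate and a bar for the group mean. Every siControl library is above every siAATF library for every member, and siAATF replicate 2 is the lowest of its group for 7 members.

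The spread of the members was read within the siAATF group. Replicate 2, the shallowest siAATF library, was the lowest of its group for 7 of the 8 members, the exception being Ciita, which was lowest in replicate 1. Of all tested genes, 43.7% were lowest in that library. The coefficient of variation was larger in siAATF than in siControl for all 8, at 57.6% against 7.46% for H2-Aa and 52.2% against 38.1% for Ctss, whereas it was larger in siAATF for 43.7% of the 15794 tested genes with a value in both groups. Without siAATF replicate 2, the log2 fold changes were -2.84 for H2-Aa, -2.90 for Cd74 and -5.08 for Ctss, and all 8 members were still called lower. With every library thinned to the smallest mouse total, 6 members were called, and H2-DMb1 at -2.57 (adjusted p = 0.0999, edgeR) and Ciita at -2.28 (adjusted p = 0.155, edgeR) were not.

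Levels were then ranked within each group as TMM-normalized CPM per kilobase of exons, which allows genes to be compared. In siControl, Ctss led at 470 ± 179 (SD, n = 3), followed by Cd74 at 312 ± 63.3, and the libraries of these 2 genes overlapped. H2-Eb1 followed at 125 ± 13.2, then H2-Aa at 77.8 ± 5.80 and H2-Ab1 at 66.7 ± 14.5, the last pair overlapping. The editor chains H2-DMb1, at 10.7 ± 4.18, and H2-DMa, at 9.20 ± 2.51, overlapped each other, and Ciita was lowest at 1.52 ± 0.326. In siAATF, Cd74 led at 32.6 ± 15.2 (SD, n = 3) and was separated from Ctss at 10.8 ± 5.65. Each gene after Ctss overlapped its neighbor there, from H2-Eb1 at 9.70 ± 6.73, H2-Aa at 7.87 ± 4.53 and H2-Ab1 at 5.17 ± 3.40 down to H2-DMa at 1.04 ± 0.495, H2-DMb1 at 0.614 ± 0.297 and Ciita at 0.268 ± 0.124. Ctss and Cd74 thus stood in the opposite order in the 2 groups, as did the DM chains, which overlapped in both.

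To examine this without any scaling between libraries, 11 ratios of per-kilobase counts within a library were computed. The ratio of Ctss to Cd74 was 1.69, 1.04 and 1.73 with the siControl label, beside 0.290, 0.348 and 0.358 with the siAATF label, a difference of -2.13 on the log2 scale. No siAATF ratio reached a siControl ratio (exact permutation, two-sided, p = 0.1, below which 3 against 3 libraries cannot go, and adjusted p = 0.275 over the 11 ratios). H2-DMb1 to H2-DMa also did not overlap, at 0.727, 2.12 and 0.962 against 0.649, 0.633 and 0.582, although with few counts. The ratios of H2-Aa, H2-Eb1, Cd74 and H2-DMa to H2-Ab1 overlapped between the groups, with differences of 0.46, -0.07, 0.64 and 0.76 on the log2 scale (exact permutation p = 0.2, 0.8, 0.3 and 0.3). Ciita to Cd74 overlapped as well, with a difference of 0.72 (exact permutation p = 0.4). Without siAATF replicate 2 or 1 this difference was 0.18 or 1.23, in that order. That of Cd74 to H2-Ab1 was then 0.26 or 1.03, and that of H2-DMa to H2-Ab1 was 0.37 or 1.14. A p of 0.1 or more in this design does not show that the ratios were equal.

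Cd74 was next set against genes of the cells that can carry it. Against Csf1r, the receptor that marks macrophages, the ratio was 8.54, 10.7 and 7.07 in siControl and 10.1, 10.4 and 10.8 in siAATF, overlapping, with a difference of 0.27 (exact permutation p = 0.3). Against Ptprc, the common leukocyte antigen CD45, it was 19.0, 9.28 and 9.70 against 32.7, 8.70 and 13.5, again overlapping. Against Itgax, an integrin of dendritic cells and of some macrophages, it was 48.9, 28.9 and 19.7 against 307, 149 and 158, without overlap and 2.67 higher in siAATF on the log2 scale. Itgax rested on 2 to 23 counts in siAATF. Against B2m, the shared light chain of class I, it was 0.199, 0.215 and 0.170 against 0.0123, 0.00669 and 0.0117, without overlap and lower by 4.30 on the log2 scale, a difference of -4.30. Both had an exact permutation p of 0.1 and an adjusted p of 0.275.

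**Figure D3:**
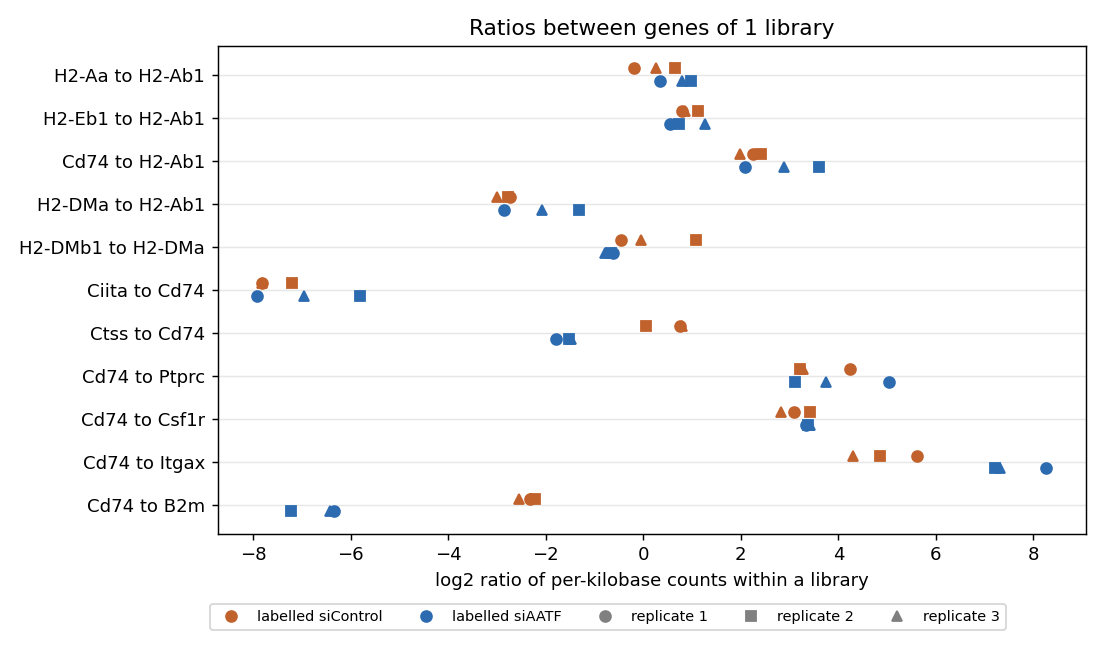
Log2 ratios of per-kilobase counts between 2 genes of the same library, for 11 pairs, with color for the label and symbol for the replicate. The groups separate for Ctss to Cd74, H2-DMb1 to H2-DMa, Cd74 to Itgax and Cd74 to B2m, and overlap for the other 7 pairs, including Cd74 to Csf1r and Cd74 to Ptprc.

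The direction of the class II comparison depended on the total to which the counts were related. Of all mouse counts, the 8 members together took 0.337%, 0.233% and 0.282% in siControl and 0.00710%, 0.00189% and 0.00748% in siAATF. As CPM of human and mouse gene counts together, their sum was 64.8, 18.1 and 47.6 in siControl and 70.3, 18.5 and 73.9 in siAATF, which overlapped. On that scale 0 of the 8 members were called in either direction by edgeR, and 1 of them, Ciita, was higher at an unadjusted p under 0.05. Of all tested genes, 87.2% were called higher on that scale and 0.66% lower. DESeq2 was not run on that scale. Ciita measured 0.466, 0.219 and 0.314 CPM of this total in siControl and 0.744, 0.992 and 1.58 in siAATF, a log2 fold change of 1.72 (adjusted p = 0.051, edgeR with Benjamini-Hochberg adjustment) with no overlap.

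On the same scale the log2 fold changes of H2-Aa, H2-Ab1, H2-Eb1, Cd74, H2-DMa and H2-DMb1 were 1.09, 0.66, 0.65, 1.03, 1.12 and 0.43, with adjusted p from 0.107 to 0.647 (edgeR). Ctss alone was below 0, at -1.26 (adjusted p = 0.0647, edgeR), with 30.2, 6.03 and 21.0 CPM of this total in siControl and 8.75, 3.31 and 11.8 in siAATF. The median of all tested mouse genes was 4.66 on this scale, on which nearly all of the total was human in siControl and mouse in siAATF. It was -1.30 by mouse library size alone. Relative to the median of all genes, the members' median was -3.96 with TMM, -3.87 by mouse library size and -3.82 per human and mouse count. These values are near each other by construction, since a scaling moves all genes of a library alike. The members were called lower on the scales of mouse counts and not on the joint one.

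**Figure D4:**
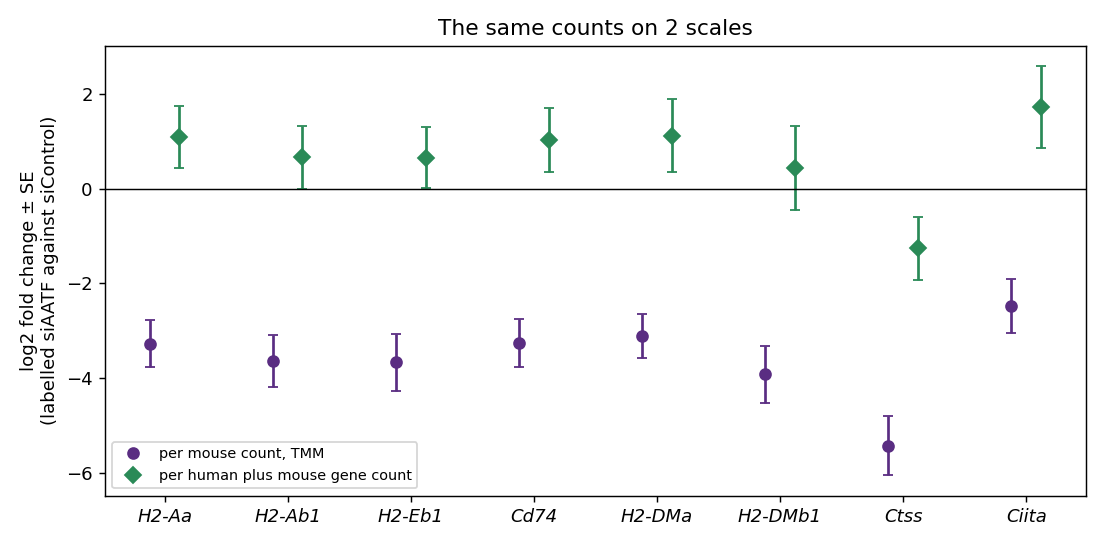
Log2 fold change of each class II gene, siAATF against siControl, with SE, per mouse count after TMM normalization (circles) and per human plus mouse gene count (diamonds). All 8 are below 0 on the first scale, and 7 are above 0 on the second, where Ctss is at -1.26 and none passed the test.

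The rest of the pathway was read from 5 lists of genes with known roles, 38 genes in the table. Of these, 35 had enough counts, 16 were called lower per mouse count, 1 was called higher and 18 were not called, beside 14.4% of all tested genes called lower and 17.6% higher, the shares against which each list below is to be read. Per human and mouse gene count 1 of the 35 was called lower and 23 higher, where 0.66% of all tested genes were called lower and 87.2% higher. Among the other chains and editors, 1 of 3 tested was called lower. H2-DMb2, the second DM beta chain, measured 16.0, 16.9 and 18.4 CPM in siControl and 1.45, 1.21 and 2.49 CPM in siAATF, a log2 fold change of -3.27 (adjusted p = 0.000317, edgeR with Benjamini-Hochberg adjustment, as for the genes that follow). With all libraries thinned to the smallest mouse total, H2-DMb2 was not called (-1.71, adjusted p = 0.212). The H2-DO chains H2-Oa and H2-Ob, which restrain H2-DM, had at most 12 counts in any library and were not called by edgeR, with log2 fold changes of -1.83 (adjusted p = 0.378) and -3.04 (adjusted p = 0.0601). DESeq2 called H2-Ob lower (-3.22, adjusted p = 0.0248). So did edgeR with upper-quartile scaling, with the replicate block and without siControl replicate 3 or siAATF replicate 3 (adjusted p from 0.0242 to 0.0485). H2-Eb2 had 4 counts in siControl replicate 3, 2 counts in siAATF replicate 1 and 0 in the other libraries, and was not tested.

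Of the 10 antigen processing genes, 5 were called lower and 1 higher per mouse count, where 6 and 2 had an unadjusted p under 0.05 (edgeR). The counts were 0 lower and 7 higher per human and mouse count, both adjusted and unadjusted, and 6 lower and 1 higher by DESeq2. Lgmn, the asparaginyl endopeptidase that begins invariant chain breakdown, measured 1129, 466 and 625 CPM in siControl and 52.9, 17.3 and 72.9 CPM in siAATF (log2 fold change -3.95, adjusted p = 0.000645). Ifi30, a thiol reductase that opens disulfide bonds of antigens, went from 107 ± 19.5 to 20.2 ± 11.4 CPM (SD, n = 3, log2 fold change -2.40, adjusted p = 0.00208). With thinning the log2 fold change of Ifi30 was -4.70. Marchf1, the ubiquitin ligase that removes class II from the surface, and Cd83, which opposes that ligase, had log2 fold changes of -3.47 and -5.00. Genes that act for and against surface class II were therefore both lower. Ctsd, an aspartic protease of lysosomes, was also called (-1.82, adjusted p = 0.0378), but not without siControl replicate 1 or 3 or siAATF replicate 1 or 2 (adjusted p from 0.0515 to 0.161), and its log2 fold change was -1.01 without siControl replicate 1.

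The proteases Ctsb and Ctsl, which many cells use, were not called by edgeR after TMM normalization without a block. Ctsb was lower in all siAATF libraries but missed the threshold (log2 fold change -1.60, adjusted p = 0.076). It passed with DESeq2 (-1.72, adjusted p = 0.00179) and with edgeR in other settings, such as the replicate block (-1.57, adjusted p = 0.0342). Ctsl, which does the work of cathepsin S in the thymus, was 0.67 (adjusted p = 0.475). Cst3, an inhibitor of these proteases, was -0.81 (adjusted p = 0.286). Sppl2a, the membrane protease that clears the last CD74 fragment, was the 1 gene called higher, with 70.6, 65.1 and 61.8 CPM in siControl and 132, 164 and 211 CPM in siAATF (log2 fold change 1.36, adjusted p = 0.0181). By mouse library size alone Sppl2a turned to -0.48 (adjusted p = 0.439), and its call was also lost with thinning (0.69, adjusted p = 0.242) and without siControl replicate 2 or 3 (adjusted p = 0.0616 and 0.113). Marchf8, the relative of Marchf1 that is active in many tissues, was 1.18 (adjusted p = 0.0594). Marchf8 was called higher by edgeR with the replicate block (1.28, adjusted p = 0.00507) and with no filter (1.31, adjusted p = 0.0133). It was also called without siControl replicate 1 or siAATF replicate 2 or 3 (adjusted p from 0.0196 to 0.0315).

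After TMM normalization most of the factors that bind class II promoters were not called. Of the 7 genes of this list, 1 was called lower, a share near the 14.4% of all tested genes. This was Nfya, a subunit of the Y-box factor NF-Y (log2 fold change -1.59, adjusted p = 0.00673, and -2.90 with thinning), which was 2.62 per human and mouse count, where all 7 were called higher. By mouse library size alone 4 of the 7 were called lower, beside 40.3% of all tested genes. The other NF-Y subunits Nfyb and Nfyc were 1.08 and 0.30, the X-box factors Rfx5, Rfxap and Rfxank were 0.31, -0.74 and 1.08, and Creb1 was 0.55, none called. Nfyb was called higher by edgeR with the replicate block, with no filter and with at least 10 counts in every library. It was also called without siControl replicate 2 or siAATF replicate 2 (adjusted p from 0.0181 to 0.0462 over these settings). The median of the list was 0.31. Rfx5 rested on 1 to 7 counts in siControl.

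Of the genes that induce CIITA or restrain its induction, 9 could be tested and 6 were called lower, beside 14.4% of all tested genes, whereas per human and mouse count 6 were called higher. Spi1 (PU.1) and Irf8, transcription factors of myeloid cells that act on its myeloid promoter, had log2 fold changes of -3.53 (adjusted p = 0.000829) and -3.42 (adjusted p = 0.000115). Irf8 measured 99.4, 53.1 and 102 CPM in siControl and 8.20, 5.24 and 10.3 CPM in siAATF. The interferon-gamma receptor chains Ifngr1 and Ifngr2 were -2.20 and -1.56 (-6.86 and -2.75 with all libraries thinned to the smallest total), the kinase Jak2 was -2.09, and Socs1, which restrains that kinase, was -3.16, all called. Ifngr1, Ifngr2 and Jak2 were called higher per human and mouse count, at 2.10, 2.75 and 2.21. The kinase Jak1 and the transcription factor Irf1 were 0.46 and -0.96 and were not called. Ifng itself had at most 1 count in any library and was not tested.

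Partners on other cells, and receptors that work with CD74, completed the lists. Cd4, the co-receptor that binds class II, was 0.20 (adjusted p = 0.883) and Lag3, an inhibitory receptor for class II, was 0.55 (adjusted p = 0.604). Cd4 had 317 counts in siAATF replicate 1 and 12 in replicate 3. Mif, a cytokine that binds CD74, was 0.04 (adjusted p = 0.958). The receptors that signal with CD74 were all called lower by edgeR, Cxcr4 at -6.81 (adjusted p = 3.4e-05), Cd44 at -4.72 (adjusted p = 0.000252) and Cxcr2 at -3.60 (adjusted p = 0.0421). For Cxcr2 the groups overlapped, with 3.21, 74.8 and 46.2 CPM in siControl and 0.207, 0 and 8.81 CPM in siAATF. Its call was lost with DESeq2 (-4.03, adjusted p = 0.108) and without siControl replicate 2 or 3 or siAATF replicate 1 or 2 (edgeR, adjusted p from 0.056 to 0.149), and without siAATF replicate 3 its log2 fold change was -7.72.

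**Figure D5:**
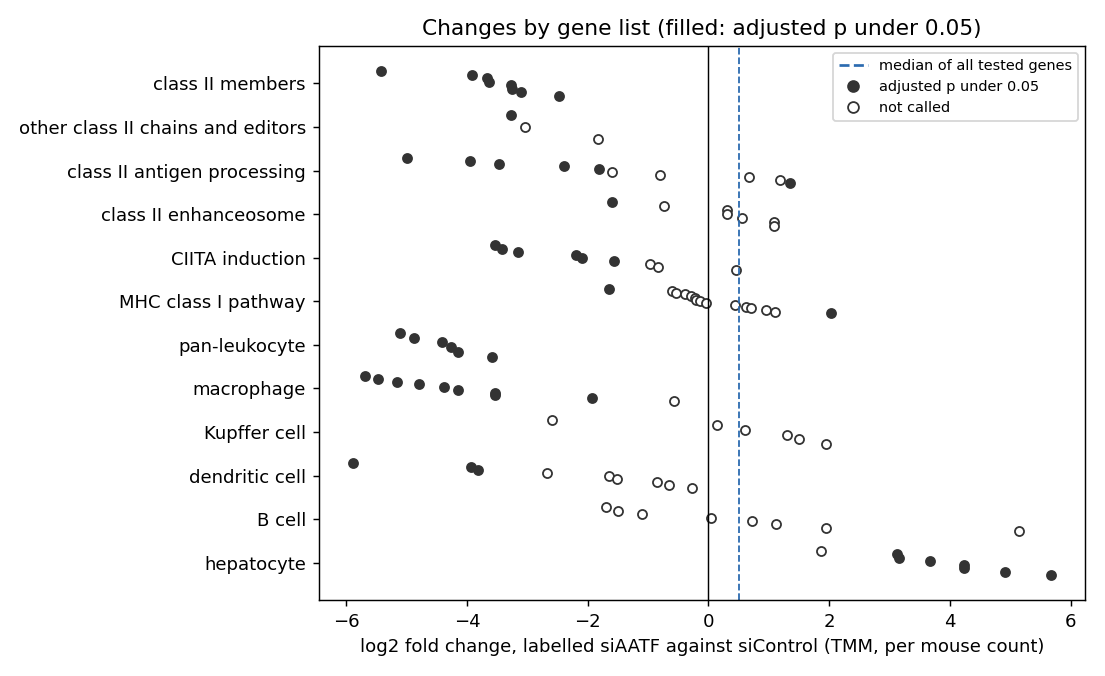
Log2 fold change per mouse count (TMM) of each tested gene, by list, with filled points for an adjusted p under 0.05 and a dashed line at the median of all tested genes. The 8 members lie between -5.43 and -2.48, the class I genes lie between -1.64 and 2.03, and the medians of the leukocyte and macrophage lists are -4.35 and -4.26.

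MHC class I, the sister pathway that presents peptides from inside the cell on nearly all cells, was compared as the most similar gene group. Of its 15 genes, 1 was called lower, where 14.4% of all tested genes were, 1 was called higher, where 17.6% were, and 13 were not called, and the median log2 fold change was -0.14 against -3.46 for class II. The heavy chains H2-K1 and H2-D1 measured 776 ± 217 and 607 ± 108 CPM in siControl and 664 ± 160 and 462 ± 284 CPM in siAATF (SD, n = 3, adjusted p = 0.764 and 0.602). B2m was 0.95 (adjusted p = 0.237), with 1663, 1129 and 1362 CPM against 2299, 2223 and 3511 CPM. Tap1, a subunit of the peptide transporter, was the gene called lower (-1.64, adjusted p = 0.00375), and the chaperone Calr the one called higher (2.03, adjusted p = 0.0224). The call of Calr was lost by mouse library size alone (0.22), with thinning (1.45) and without siControl replicate 2 (1.81) or 3 (1.84). Nlrc5, the relative of CIITA that controls class I, was -0.29 (adjusted p = 0.712), beside -2.48 for Ciita. These verdicts are per mouse count: by mouse library size alone 10 class I genes were called lower, where 40.3% of all tested genes were called lower and 4.15% higher. All 15 were called higher per human and mouse count, as were 87.2% of all tested genes.

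To see which cells that can carry class II were represented, marker lists were read in the same way. All 6 general leukocyte genes were called lower per mouse count, at a median of -4.35 on the log2 scale, and their summed level lay between 1128 and 1288 CPM in siControl and between 36.7 and 96.7 CPM in siAATF. The 2 with the highest mean CPM over the 6 libraries, not corrected for length, were Laptm5, at 299 ± 60.2 and 13.9 ± 3.08 CPM, and Coro1a, at 244 ± 21.1 and 12.5 ± 12.3 CPM (SD, n = 3 each). Of 10 macrophage genes, 9 were called lower, with a median of -4.26 and a summed level of 1646 to 4831 CPM against 151 to 236 CPM. Lyz2 and C1qa, chosen by the same rule, had log2 fold changes of -5.47 and -3.53. Per human and mouse gene count, 0 of the 6 leukocyte genes were called by edgeR, and 0 at an unadjusted p under 0.05, while 1 macrophage gene was called lower and 2 higher, on a scale where 87.2% of all tested genes were called higher. None of these markers was at 0 in every library.

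The markers of resident macrophages and B cells were not called. By edgeR 0 of 6 Kupffer cell genes were called, with 1 lower and 2 higher at an unadjusted p under 0.05 and 0 by DESeq2 after adjustment. Without siAATF replicate 2, 2 of them were called higher, and without siControl replicate 1 or siAATF replicate 3, 1 was. Their median was 0.95 and their summed level 16.9 to 111 CPM with the siControl label, beside 78.6 to 133 CPM with the siAATF label. Clec4f, a lectin restricted to Kupffer cells, measured 44.1, 2.41 and 13.4 CPM against 69.5, 45.3 and 69.0 CPM (adjusted p = 0.0705, edgeR). The value of 2.41 CPM, in siControl replicate 2, was the worth of 1 count. Clec4f was called higher by edgeR with the replicate block (1.86, adjusted p = 6.79e-05) and with no filter (1.63, adjusted p = 0.00144). Cd5l, next in mean CPM on this list, was 0.14 (adjusted p = 0.848, edgeR). Of 8 B cell genes 0 were called by edgeR or DESeq2, with 0 at an unadjusted p under 0.05 in edgeR and 1 in DESeq2. The B cell list had a median of 0.39 and a summed level of 21.7 to 53.7 CPM against 39.3 to 43.2 CPM, most of it Ighm at 31.6 ± 17.3 and 34.6 ± 2.88 CPM (SD, n = 3 each). Fcer2a, another B cell gene, was at 0 in all siControl libraries and at 0.485 ± 0.211 CPM (SD, n = 3) in siAATF. In siControl 1 count was worth 0.557 to 2.41 CPM, so that a level like that of siAATF could have gone unseen. By mouse library size alone 2 Kupffer cell and 3 B cell genes were called lower, and per human and mouse gene count 5 and 8 were called higher, beside the 40.3% and 87.2% of all tested genes called in those directions. Of 9 dendritic cell genes, 3 were called lower, beside 14.4% of all tested genes, with a median of -1.64. The calls of this list were 7 lower by mouse library size alone and 5 higher per human and mouse count. The call of 1 of the 3, Flt3, rested on at most 4 counts a library and was lost with the replicate block and without siControl replicate 2 or siAATF replicate 3, and that of Siglech without siControl replicate 3, which left 1 gene of the list called. By that rule the genes named are Itgax at -5.88 and Zbtb46 at -0.28, of which Itgax had the higher mean CPM in siControl and Zbtb46 in siAATF.

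Markers of the other cells of the tissue also moved with the labels. By edgeR the 6 activated fibroblast genes were all called lower with a median of -6.12, 4 of 5 neutrophil genes were called lower, and 3 of 3 tested T cell genes were called lower from at most 17 counts a library. With 1 library left out at a time, the neutrophil count ranged from 1 (without siControl replicate 2 or 3 or siAATF replicate 2) to 5 and the T cell count from 0 (without siControl replicate 3, with 1 gene still tested) to 3. The T cell calls were lost without siControl replicate 3 for Cd3g, which went from -3.61 to -0.80, without siControl replicate 2 for Cd3d, and without siAATF replicate 1 for both. DESeq2 called 5 fibroblast genes, giving no p for the sixth, 3 neutrophil genes and 3 T cell genes lower. Of 7 sinusoidal endothelial genes 4 were called lower and 1 higher, and 7 of 8 hepatocyte genes were called higher with a median of 3.95. The hepatocyte count was 5 without siControl replicate 2 and 4 without siControl replicate 3, and the endothelial gene called higher was lost without either. On the joint scale of human and mouse counts 3 fibroblast genes were called lower, 6 endothelial and 8 hepatocyte genes higher, and 0 neutrophil and 0 T cell genes in either direction by edgeR, with 0 of these at an unadjusted p under 0.05. By mouse library size alone 5 endothelial genes were called lower and 5 hepatocyte genes higher. The summed levels of the fibroblast, neutrophil and T cell lists, in that order, were 8144 to 11850, 87.4 to 1822 and 4.81 to 22.3 CPM in siControl. The same sums in siAATF were 66.9 to 160, 2.22 to 128 and 0.345 to 0.776 CPM. The endothelial sum was 435 to 547 against 112 to 261 CPM and the hepatocyte sum 7388 to 16520 against 39620 to 145300 CPM. The part of these shifts in the class II difference was not tested.

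Finally, the genes whose profile was most like that of class II were sought among 3502 other protein-coding genes that had 10 or more counts in each of the 6 libraries. Likeness was the root mean square distance, on the log2 scale over the 6 libraries, from the mean profile of H2-Aa, H2-Ab1, H2-Eb1 and Cd74, each profile being centred on its own mean so that the level of a gene played no part. The nearest were Scd2 at 0.193, Tmsb4x at 0.203, Ucp2 at 0.246, Nid1 at 0.251 and Lum at 0.251, the last being an extracellular matrix proteoglycan. The 4 genes that form the mean lay at 0.185 for H2-Aa, 0.212 for H2-Ab1, 0.252 for H2-Eb1 and 0.306 for Cd74, each against a mean that contains it, and 0, 2, 5 and 10 other genes were nearer. Of the other members, H2-DMa lay at 0.457, H2-DMb1 at 0.510, Ctss at 0.981 and Ciita at 1.04, and 436 of the 3502 genes were nearer than Ciita. Scd2, a fatty acid desaturase, measured 86.6, 70.0 and 103 CPM in siControl and 11.4, 2.42 and 9.92 CPM in siAATF.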

How the data were processed

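Bulk RNA of 6 liver samples with human tumors, 3 labelled siControl and 3 labelled siAATF, was sequenced from SMART-Seq libraries. The authors aligned reads with STAR (2.7.11 by the submitters' processing notes) to the human and mouse genomes, dropped reads with several positions or with hits in both species, and deposited raw counts per gene from featureCounts (2.0.1) without normalization. Use of strand is not stated. The deposited tables also give gene lengths, used for levels per kilobase. Mouse identifiers were counted on release 33 and named from GENCODE release 39 (GRCm39), leaving 561 of 56884 genes unnamed. Among human genes 1, broken over 3 lines, was left out, and human counts were used only as totals. Total mouse counts per library were 213022 to 42563694, so that 1 count was worth 0.557 to 2.41 TMM-normalized CPM in siControl and 0.0345 to 0.201 in siAATF.

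Genes whose counts summed to 10 or more were normalized by TMM and compared between the groups, with no other term, by the quasi-likelihood F test of edgeR 4.0.16 (R 4.3.3), adjusted over 18018 genes by Benjamini-Hochberg. DESeq2 1.42.0 was an alternative. The script was tested on simulated data. Ratios were compared by exact permutation tests with 0.5 added to each count. Levels of H2-DMb1 and H2-DMb2, near-identical copies, are uncertain. Promoters came from GENCODE principal transcripts. Nothing in the labels says whether replicates were separate animals, so p-values measure the spread between these samples, which may be technical. The same replicate number in both groups was not treated as a pairing. Members, lists and tests were chosen with earlier results of these data known. All members may be named, as may genes of the pathway lists, the 2 genes of each cell type list with the highest mean CPM and those at 0, and the 5 nearest profiles. Csf1r, Ptprc and Itgax were fixed as denominators, and Fcer2a, Flt3, Siglech, Cd3d and Cd3g were named after their values were seen. The result of 1 gene of the pathway lists is not reported here.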

Additional observations from a re-analysis of the deposited data

How the results depend on the processing

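Of 124 values of single members under alternatives, 114 kept direction and call. Per human and mouse gene count the members called lower were 0, the fold changes of H2-Aa, H2-Ab1, H2-Eb1, Cd74, H2-DMa, H2-DMb1 and Ciita reversed to 1.09, 0.66, 0.65, 1.03, 1.12, 0.43 and 1.72, and the calls were 23 higher and 1 lower for the other pathway genes, 15 and 0 for class I, and 15711 and 119 for all mouse genes, by construction of a total that is nearly all human in siControl. By mouse library size alone the pathway genes gave 0 higher and 26 lower, class I 0 and 10, and all genes 748 and 7267. With at least 10 counts in every library only 4 members were tested and all 4 were called, the pathway genes gave 2 higher and 10 lower, and all genes 872 and 873. Thinning gave 0 pathway and 0 class I genes higher and 1307 of all genes higher. No filter gave 3 pathway genes higher, DESeq2 gave 3 class I genes higher, and the rule of the study's methods gave 0 pathway genes higher and 0 class I genes lower. Where construction does not show it, the cause was not tested.

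With the replicate block, 3 pathway genes were called higher in place of 1, 19 were called lower in place of 16, and 8 members were lower as before. Ctsb, H2-Ob and Irf1 gained the lower calls (adjusted p = 0.0342, 0.0473 and 0.0242, edgeR). Deviations of same-numbered libraries correlated at 0.11, 0.154 and -0.0237, beside -0.211 to 0.149 for libraries of different numbers. With 3 libraries per group these values cannot decide whether the numbers pair them. Leaving out 1 library at a time kept 8 members called. Pathway genes called higher ranged from 0 (without siControl replicate 3) to 3 (without siAATF replicate 2) and were 2 without siControl replicate 1 or siAATF replicate 3. Class I genes called higher ranged from 0 (without siControl replicate 2 or 3) to 3 (without siAATF replicate 2), and those lower from 1 to 3 (without siAATF replicate 3). All genes called higher ranged from 1611 (without siControl replicate 3) to 3576, and those lower from 1722 (without siControl replicate 3) to 2503. The log2 difference in H2-Eb1 to H2-Ab1 ranged from -0.28 to 0.08 and was above 0 without siControl replicate 2 (0.03) or siAATF replicate 1 (0.08), and that in Cd74 to Ptprc ranged from -0.14 (without siAATF replicate 1) to 0.81. The depth of siControl was 213022 mouse counts at the least. Among the 8 members, H2-DMb1 and Ciita had the fewest counts over the 6 libraries, 96 and 140.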
